A study of Bos taurus with 48 samples.

Results

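The 5 genes described here encode parts of the extracellular matrix of adipose tissue and an enzyme that modifies it. They are COL1A1 (ENSBTAG00000013103), COL1A2 (ENSBTAG00000013472), COL3A1 (ENSBTAG00000021466), DCN (ENSBTAG00000003505) and XYLT1 (ENSBTAG00000005523), named one by one and matched to identifiers through the study's tables of differentially expressed genes (DEG). They are 5 of the 24616 genes with counts. All 5 passed the filter of at least 2 CPM (read counts scaled to the size of the library) in at least 3 samples, at both sampling times.

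RNA-seq counts were available for 48 libraries of subcutaneous adipose tissue from 24 Norwegian Red heifers, a Norwegian dairy breed. Every heifer gave 1 biopsy when 12 months old and another in month 7 of gestation, when 20 to 24 months old. From 3 months of age until pregnancy the heifers were fed 1 of 4 diets with 6 heifers each: low protein and high energy (LPHE), low protein and low energy (LPLE), high protein and high energy (HPHE) or high protein and low energy (HPLE). Of the 6 heifers on a diet, 3 came from a line bred for high milk yield (HMY) and 3 from a line bred for low occurrence of clinical mastitis (LCM). From days 28 to 42 of gestation all heifers shared 1 low-energy feed, so the contrasts in month 7 of gestation compare earlier diets. Sampling time, age, pregnancy and feed changed together and cannot be told apart. No group was kept on a standard feed as a control, and the biopsies were whole tissue.

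Type I collagen is a triple helix of 2 kinds of chain, the alpha 1 chain encoded by COL1A1 and the alpha 2 chain encoded by COL1A2. Type III collagen, from COL3A1, is laid down with type I in the same fibrils of soft connective tissue. Decorin, the product of DCN, is a small leucine-rich proteoglycan that binds collagen fibrils and limits their thickness. Xylosyltransferase 1, the product of XYLT1, adds the xylose on which the sugar chains of decorin and other proteoglycans are built. In adipose tissue the matrix surrounds each fat cell, and it is made largely by fibroblasts and fat cell precursors.

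Libraries held 14815595 to 59809633 gene reads at 12 months and 22430093 to 61027456 in month 7 of gestation. XYLT1 had the fewest reads of the 5 genes. The reads on genes made up 39.0% of all counted reads in HPLE heifer 7 and 45.1% in HPHE heifer 23 in month 7 of gestation, and 47.5% in HPHE heifer 6 at 12 months, against medians of 56.9% and 57.0% at the 2 times. HPLE heifer 13 stood apart at 12 months on the second axis of the multidimensional scaling. Each of these libraries was also left out in turn.

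**Figure D1:**
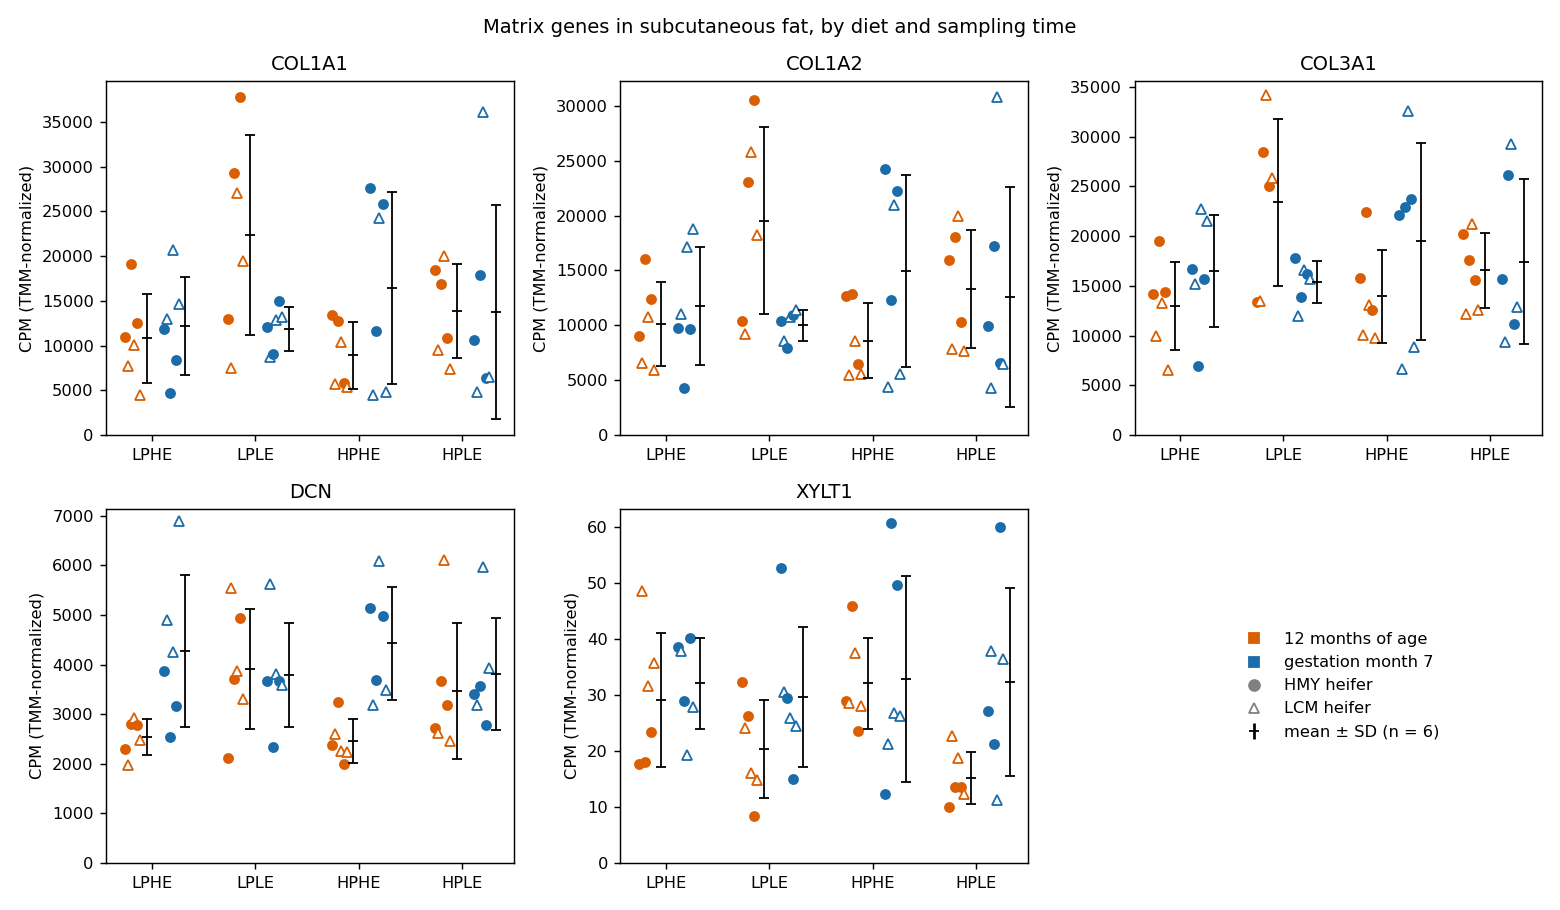
The 5 genes (panels) in 4 diets at both times, in CPM on a linear axis, with 1 point per heifer. At 12 months the LPLE heifers reached 37764 CPM of COL1A1 against at most 19178 in the LPHE heifers, and the XYLT1 points of HPHE lay above all those of HPLE, which reached 22.7 CPM.

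The high- against the low-energy diets were the main contrast at 12 months, during the feeding period. By the paper's averages, crude protein intake was also higher on both high-energy diets than on both low-energy diets. LPHE heifers took in more crude protein than HPLE heifers. Energy effect below therefore means the difference between high- and low-energy rations, in which energy and protein intake cannot be told apart. The 3 collagen genes and DCN were lower, and XYLT1 was higher, in the 12 high-energy heifers (HE) than in the 12 low-energy heifers (LE). COL1A1, COL1A2, COL3A1 and DCN were chosen by the study from LPHE against LPLE and XYLT1 from HPHE against HPLE, so their direction at 12 months is not independent evidence. It is described here with the values that carry it.

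COL1A1 ranged from 4447 to 19178 CPM in the LPHE heifers (median 10528) and from 7531 to 37764 CPM in the LPLE heifers (median 23250). The ranges overlapped, and 4 of the 6 LPLE heifers lay above every LPHE heifer. The log2 fold change (log2FC) of LPHE-LPLE was −1.09 (SE 0.311, FDR 0.0202). With high protein the same gene ranged from 5387 to 13482 CPM in HPHE (median 8097) and from 7404 to 19997 CPM in HPLE (median 13847), a log2FC of −0.66 (SE 0.309, FDR 0.614).

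COL1A2 gave nearly the same picture, with 5904 to 16055 CPM in LPHE (median 9899) and 9184 to 30525 CPM in LPLE (median 20666). Again 4 of 6 LPLE heifers lay above all LPHE heifers, and 3 of 6 LPHE heifers lay below all LPLE heifers. The log2FC was −0.999 (SE 0.288, FDR 0.0226) for LPHE-LPLE and −0.66 (SE 0.287, FDR 0.573) for HPHE-HPLE, with medians of 7538 CPM in HPHE and 13140 CPM in HPLE.

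COL3A1 ranged from 6591 to 19521 CPM in LPHE (median 13715) and from 13355 to 34214 CPM in LPLE (median 25459). It was down-regulated in LPHE with a log2FC of −0.91 (SE 0.246, FDR 0.0129), and 4 of 6 LPLE heifers lay above all LPHE heifers. In the high-protein diets the ranges were largely shared, with 9820 to 22402 CPM in HPHE and 12218 to 21243 CPM in HPLE, and the log2FC was −0.28 (SE 0.243, FDR 0.838).

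Together the 3 collagens took 6.44% ± 2.49 (SD, n = 6) of all gene reads in LPLE heifers at 12 months. The share was 3.20% ± 1.27 in LPHE, 2.95% ± 1.01 in HPHE and 4.41% ± 1.61 in HPLE heifers, with n = 6 in each. The highest single library of that time, an LPLE heifer, gave 9.30% of its gene reads to these 3 genes.

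DCN ranged from 1979 to 2922 CPM in LPHE (median 2623) and from 2122 to 5534 CPM in LPLE (median 3788). The LPHE heifers lay close together, and 5 of 6 LPLE heifers lay above all of them. The log2FC was −0.63 (SE 0.225, FDR 0.0816) in LPHE-LPLE, which is past the 0.1 threshold used for contrasts of 2 diets. This call was lost with the quasi-likelihood F test (FDR 0.109) and in 8 of the 24 fits that left out 1 heifer (FDR up to 0.235).

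In HPHE the DCN level ranged from 1993 to 3254 CPM (median 2315) and in HPLE from 2462 to 6111 CPM (median 2953). The top of the HPLE range was heifer 13. The log2FC of HPHE-HPLE was −0.50 (SE 0.224, FDR 0.585).

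XYLT1 was the only one of the 5 with higher values on high energy, and its clearest separation was with high protein. The 6 HPHE heifers had 23.5 to 45.9 CPM (median 28.7) and the 6 HPLE heifers 9.92 to 22.7 CPM (median 13.5), with no overlap. The log2FC was 1.11 (SE 0.275, FDR 0.0603). An exact permutation test on the 6 against 6 heifers gave a two-sided p of 0.00216, the smallest this design can give, and 0.0866 after Benjamini-Hochberg adjustment over the 40 comparisons of 2 diets made for the 5 genes. XYLT1 was chosen from this contrast in these libraries, and that adjustment does not cover the choice. Neither the gap nor this p is therefore independent evidence.

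The XYLT1 call was not kept under all settings. The quasi-likelihood F test called 0 of the 13339 genes in this contrast, XYLT1 included (FDR 0.507). The call was also lost with library size alone (FDR 0.148) and in 7 of the 24 fits without 1 heifer, those without HPLE heifers 1, 9, 13, 17 or 21 or without HPHE heifers 2 or 11 (FDR up to 0.388), while the log2FC stayed between 0.93 and 1.22. With low protein the XYLT1 ranges overlapped, 17.7 to 48.5 CPM in LPHE (median 27.5) and 8.40 to 32.3 CPM in LPLE (median 20.1), and the log2FC was 0.44 (SE 0.274, FDR 0.400).

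The medians at 12 months fell in the order LPLE, HPLE, LPHE, HPHE for the 3 collagens and DCN, and in the order HPHE, LPHE, LPLE, HPLE for XYLT1. Neighbours in these orders overlapped in every gene. The exact permutation test of HPLE against LPLE gave a two-sided p between 0.132 for COL3A1 and 0.515 for DCN, and that of HPHE against LPHE gave a p between 0.463 for COL1A2 and 0.684 for DCN, so neither pair of neighbours differed beyond its spread. LPHE against HPLE was not tested.

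By the rule of each contrast, 4 of the 5 genes were called in LPHE-LPLE at 12 months, all lower, where 7.08% of 13339 genes were called and 2.63% were lower. In HPHE-HPLE it was 1 of 5, XYLT1, where 0.12% of all genes were called. Both counts were favoured by the choice of the genes from these contrasts and are no independent evidence. Whether the energy effect differed between the protein levels was tested directly. None of the 5 passed the likelihood ratio test (0.105% of all genes did), none had an unadjusted p under 0.05, and the quasi-likelihood test called none. The differences were all negative, the sign that the choice of each gene favours, so their shared direction is no independent evidence. By the likelihood ratio test the unadjusted p was smallest for COL3A1, at 0.0656 for a difference of −0.63 (SE 0.344), and for XYLT1, at 0.0829 for −0.67 (SE 0.388). A different energy effect at low and high protein was therefore not shown for any of them.

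Over both protein levels, all 5 genes were called in HE-LE overall at 12 months at an FDR under 0.05, where 7.2% of all genes were called, 2.51% lower and 4.69% higher. The log2FC was −0.88 (SE 0.219, FDR 0.00366) for COL1A1, −0.83 (SE 0.203, FDR 0.00286) for COL1A2 and −0.60 (SE 0.173, FDR 0.0159) for COL3A1. It was −0.57 (SE 0.159, FDR 0.0118) for DCN and 0.77 (SE 0.193, FDR 0.00375) for XYLT1. These 5 calls were kept in each of the 24 fits that left out 1 heifer and with the quasi-likelihood test, in which 6.78% of all genes were called and their FDR ranged from 0.0257 to 0.0470. All 5 genes were chosen on these same libraries, so neither the calls nor their share is independent evidence.

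**Figure D2:**
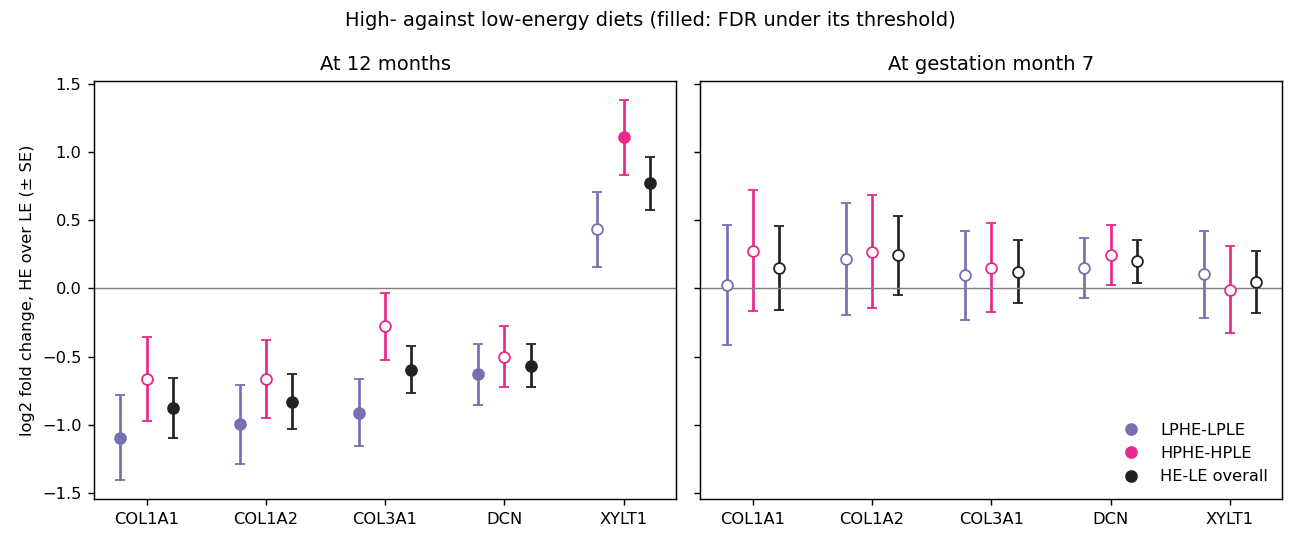
The log2FC between high and low energy with its standard error for each gene, at 12 months and in month 7 of gestation, at low protein, at high protein and over both. The collagens and DCN lie below 0 at 12 months and above 0 in month 7 of gestation, where their values over both protein levels span 0.12 to 0.24.

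Marker genes of other cells are given beside these values. Like the matrix genes they were matched to identifiers through the study's tables, and all but DSP come from its list for LPHE-LPLE, so a difference there was fixed by that choice. Markers without a match were not analysed here. Of the skeletal muscle markers, 5 of 8 were matched, and all 5 were called lower in LPHE than in LPLE. In HPHE-HPLE 2 were positive and 3 negative, with none called and none at an unadjusted p under 0.05 by the likelihood ratio test and none called by the quasi-likelihood test. Their summed level ranged from 0.686 to 1.37 CPM in LPHE and from 1.13 to 60.5 CPM in LPLE, and from 0.614 to 123 CPM in HPHE and 0.422 to 117 CPM in HPLE. ACTA1, skeletal muscle actin, was at 0 in 1 LPHE and 1 HPHE heifer, MYH2 in 5 LPHE, 2 LPLE, 4 HPHE and 3 HPLE heifers and MYLPF in 3 LPHE, 1 HPHE and 2 HPLE heifers.

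The sum of MYH11 and CNN1, 2 of 4 smooth muscle markers, ranged from 43.0 to 319.5 CPM in LPHE and from 73.2 to 1777 CPM in LPLE. Neither gene passed, and the log2FC went opposite ways at the 2 protein levels, −1.71 for MYH11 and −1.90 for CNN1 in LPHE-LPLE and 1.28 and 1.496 in HPHE-HPLE, with −0.22 and −0.20 in HE-LE overall. The fat cell genes CIDEC and LEP, 2 of 8, summed to 2043 to 3357 CPM in LPHE and 887 to 2604 CPM in LPLE. Leptin, the hormone encoded by LEP, was higher in LPHE with a log2FC of 1.60 (SE 0.355, FDR 0.00212), and it had 1.14 (SE 0.361, FDR 0.301) in HPHE-HPLE. PI16, a marker of fat cell precursors and the only 1 of 8 fibroblast and progenitor markers matched, had 89.6 to 273 CPM in LPHE and 141 to 1208 CPM in LPLE (log2FC −1.10, SE 0.361, FDR 0.0519), and its log2FC was −0.17 (SE 0.355) in HPHE-HPLE. The keratinocyte marker DSP, 1 of 4, did not pass in this contrast, and no endothelial, macrophage or T cell marker could be matched to an identifier.

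Without the 5 libraries of that time with over 10 CPM of ACTA1 (2 HPHE, 1 HPLE and 2 LPLE), an alternative chosen after the data were seen, the energy effect at 12 months was larger in each of the 5 genes. The overall log2FC was then −1.19 (SE 0.207) for COL1A1, −1.07 (SE 0.196) for COL1A2, −0.85 (SE 0.156) for COL3A1, −0.62 (SE 0.162) for DCN and 0.81 (SE 0.201) for XYLT1. The call of XYLT1 in HPHE-HPLE alone was lost without them (log2FC 0.89, SE 0.289, FDR 0.273). Without the 2 libraries with over 1000 CPM of MYH11, chosen in the same way, the 5 overall calls were kept, and DCN in LPHE-LPLE was not (FDR 0.123). The part of fat cell and precursor RNA in these differences was not tested. In whole tissue, fewer cells of a type and less RNA per cell cannot be told apart.

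Other matrix genes were taken from lists of 218 matrix symbols, of which 30 could be matched to an identifier through the study's DEG tables. They are therefore mostly genes that differed in LPHE-LPLE, and their count there is not independent evidence. Of these 30, 26 were called lower in LPHE-LPLE (17 called by the quasi-likelihood test, which called 7.76% of all genes) and all 30 had a negative log2FC, with a median of −0.79 against −0.02 over all genes tested. In HPHE-HPLE 25 of 30 were negative with a median of −0.20, and none was called, with 1 at an unadjusted p under 0.05 and none by the quasi-likelihood test.

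The HE-LE contrast over all heifers at 12 months holds those LPHE and LPLE libraries, so the direction of the 30 in it is not independent evidence either. In it 2.51% of all genes were called lower by the likelihood ratio test, and 6.78% were called in either direction by the quasi-likelihood test. Of the 30, the quasi-likelihood test called 6 and the likelihood ratio test called 10, all lower. The matrix-degrading protease ADAMTS5 (log2FC −0.80, FDR 0.00796), the elastic fibre genes FBLN2 (−0.56, FDR 0.00575) and MFAP2 (−0.66, FDR 0.00800) and the cell surface proteoglycan GPC3 (−0.66, FDR 0.0159) were among them. So were genes that process collagen, FKBP10 (−0.59, FDR 0.0212), a folding helper of the collagen chains, PCOLCE (−0.47, FDR 0.0330), which enhances cleavage of the procollagen end, and P4HA2 (−0.41, FDR 0.0485), which hydroxylates collagen prolines. CHPF (−0.61, FDR 0.0186), which extends chondroitin sulfate chains on the linkage that xylosyltransferase starts, was lower too, opposite to XYLT1. XYLT1 itself was the only 1 of 10 genes of that linkage with a matched identifier.

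**Figure D3:**
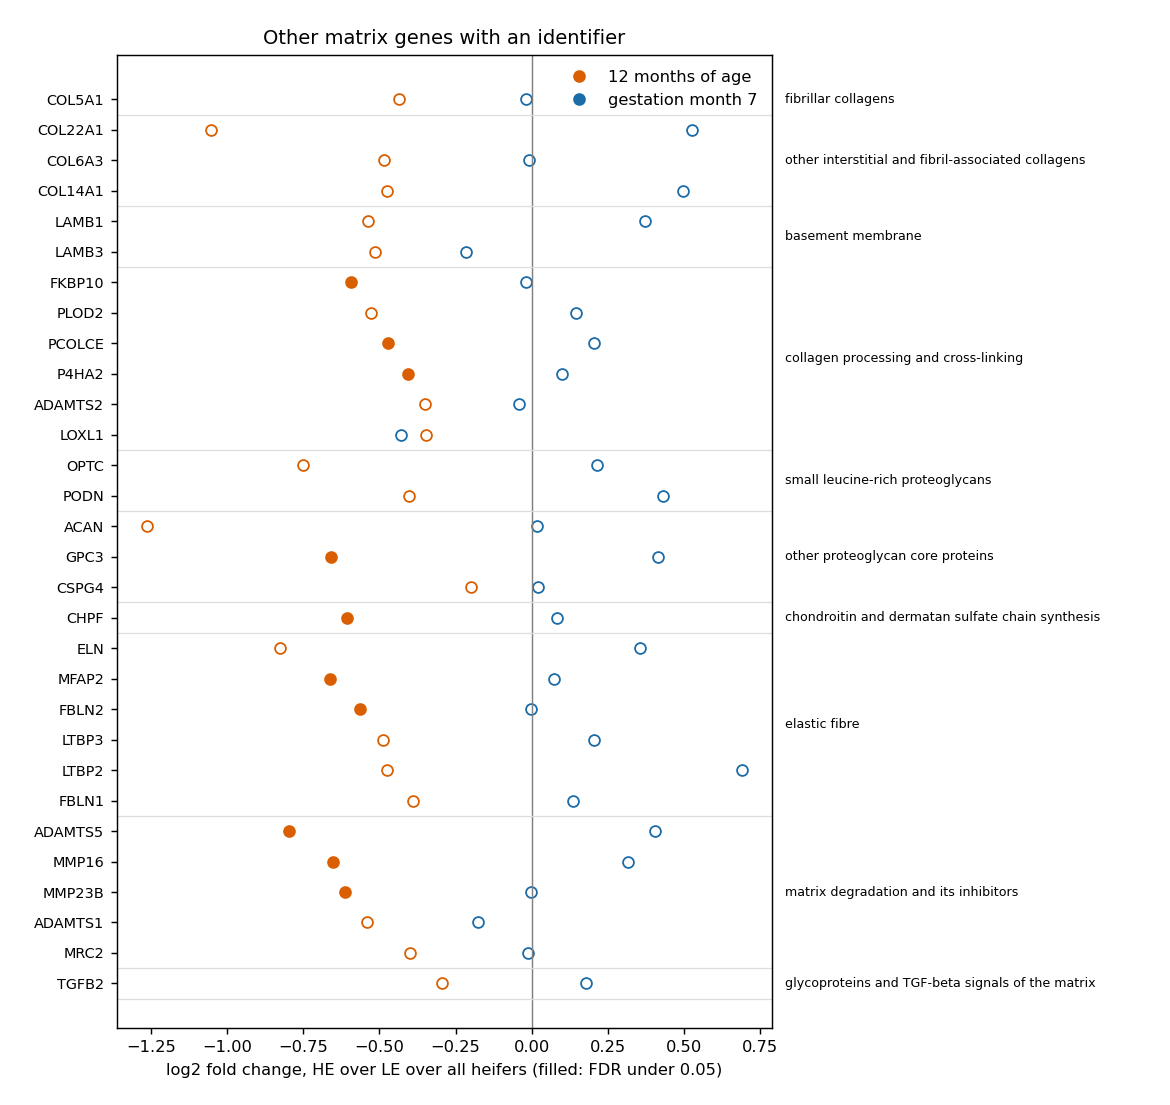
The log2FC of the 30 matrix genes outside the 5, grouped by list, between high and low energy over both protein levels at 12 months and in month 7 of gestation. At 12 months all 30 lie below 0 with a median of −0.52. In month 7 of gestation 20 of 30 lie above 0 with a median of 0.12. The 30 were matched through the study's LPHE-LPLE list, so their direction at 12 months is not independent evidence.

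In month 7 of gestation the heifers had been on the shared feed for months, and the ranges of the 4 earlier diets overlapped in all 5 genes. The median COL1A1 level was 12428 CPM in LPHE heifers and 12493 CPM in LPLE heifers. The 6 LPLE heifers lay between 8757 and 14988 CPM, inside the LPHE range of 4729 to 20677 CPM. At high protein the medians were 17961 CPM in HPHE (4512 to 27630) and 8605 CPM in HPLE (4793 to 36154), and the highest value came from an HPLE heifer.

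COL1A2 and COL3A1 followed COL1A1. COL1A2 ranged from 4280 to 18789 CPM in LPHE, 7923 to 11373 CPM in LPLE, 4419 to 24219 CPM in HPHE and 4269 to 30835 CPM in HPLE. COL3A1 ranged from 6930 to 22785 CPM in LPHE, 12010 to 17827 CPM in LPLE, 6610 to 32612 CPM in HPHE and 9406 to 29317 CPM in HPLE. In both genes the LPLE range lay inside the other 3, as for COL1A1.

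The DCN medians were 4059 CPM in LPHE (2541 to 6895), 3667 CPM in LPLE (2343 to 5624), 4329 CPM in HPHE (3174 to 6078) and 3481 CPM in HPLE (2777 to 5972). The XYLT1 medians were 33.3 CPM in LPHE (19.3 to 40.2), 27.6 CPM in LPLE (14.9 to 52.6), 26.5 CPM in HPHE (12.4 to 60.6) and 31.7 CPM in HPLE (11.3 to 59.9). All 4 diets overlapped in both genes, and the gap in XYLT1 between HPHE and HPLE at 12 months was not seen at the later time.

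None of the 5 was called in LPHE-LPLE (1.05% of genes called), HPHE-HPLE (0.948%), the difference between them (0.00746%) or HE-LE overall (3.74%) in month 7 of gestation. None had an unadjusted p under 0.05 in these contrasts, and the quasi-likelihood test called none (4.51% of all genes in HE-LE overall). The HE-LE overall log2FC was 0.15 (SE 0.309) for COL1A1, 0.24 (SE 0.290) for COL1A2, 0.12 (SE 0.231) for COL3A1, 0.20 (SE 0.156) for DCN and 0.05 (SE 0.226) for XYLT1. Values that miss the threshold do not show that the groups were alike. Of the 30 other matrix genes none was called in that contrast, 6 had an unadjusted p under 0.05 and the quasi-likelihood test called none.

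Heifers of LPLE lay closest together in the collagens in month 7 of gestation. The highest COL1A1 value was 1.71 times the lowest in the LPLE heifers, 4.37 times in LPHE, 6.12 times in HPHE and 7.54 times in HPLE heifers. The SD of the log2 values was 0.315 in LPLE and 1.21 in HPHE. These are descriptions of 6 heifers each, and the difference in spread was not tested.

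The same heifers were sampled at 12 months and in month 7 of gestation. The log2FC between the times come from a fit without a heifer block, which does not use this pairing. DCN was called higher at the later time over all diets, with a log2FC of 0.41 (SE 0.112, FDR 0.00132), and XYLT1 with 0.44 (SE 0.163, FDR 0.0210), where 37.4% of 13718 genes were called and 18% were higher. The collagens were not called, with values from 0.01 to 0.08. Beside a background this wide, 2 of 5 is close to the share over all genes. With each heifer as a block, DCN (0.41, FDR 0.000327) and XYLT1 (0.41, FDR 0.00838) were again called. COL1A1 and COL1A2 were then at −0.0592 and −0.0954 and COL3A1 at 0.0296, all uncalled.

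**Figure D4:**
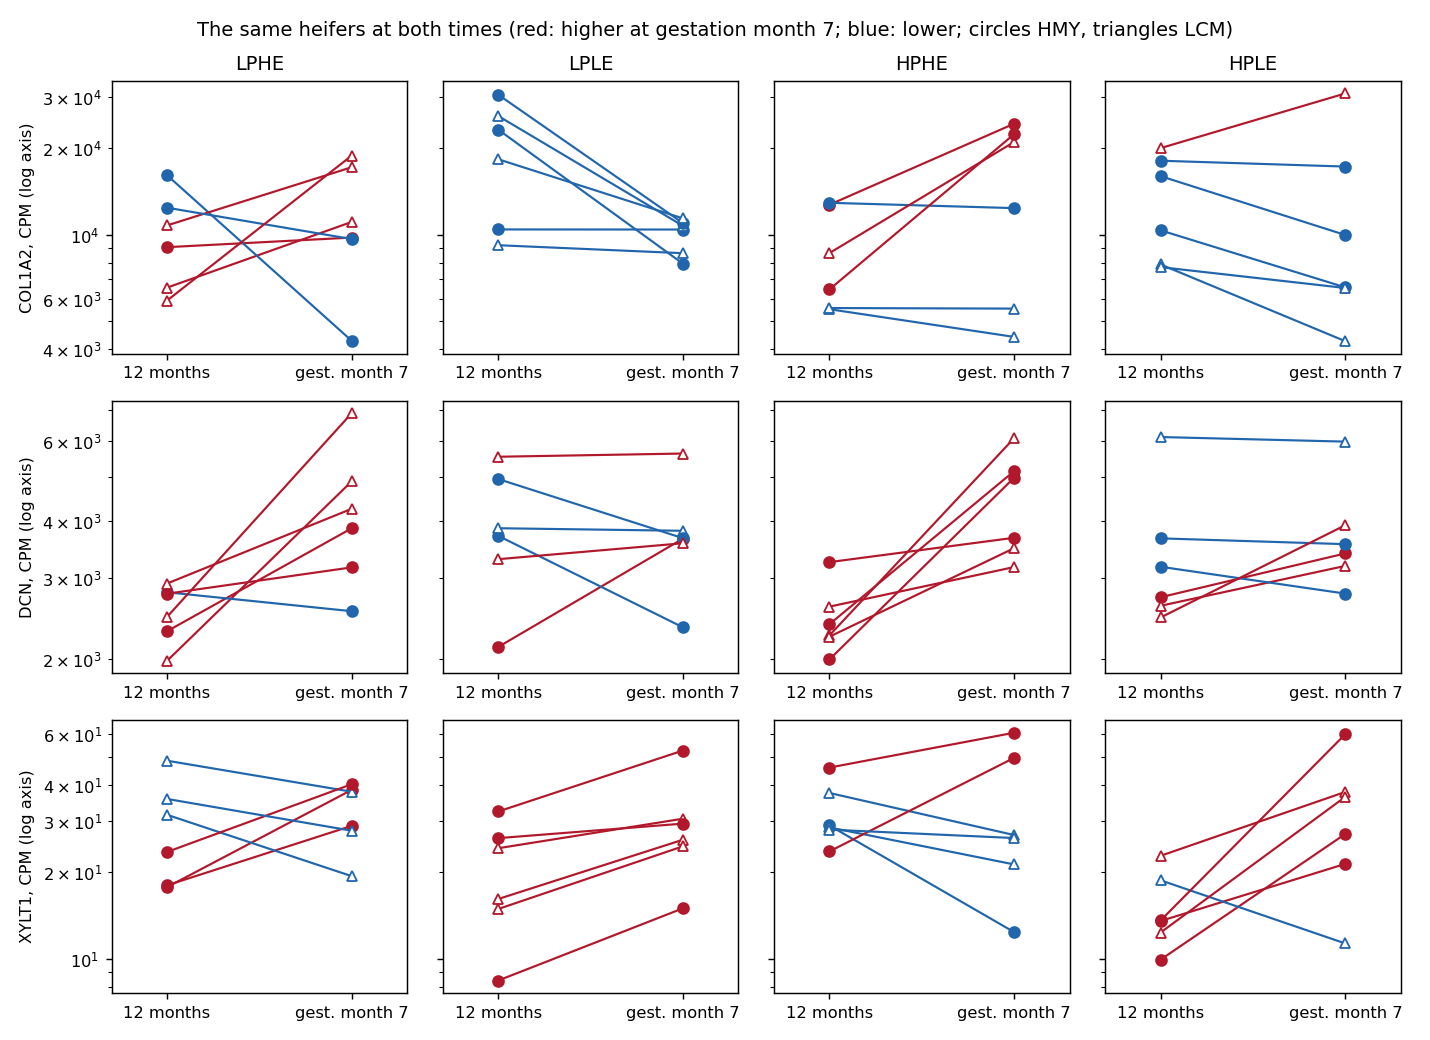
COL1A2, DCN and XYLT1 (rows) in each heifer at 12 months and in month 7 of gestation, by diet (columns), in CPM on a log axis, with red lines for heifers that were higher later and blue lines for those that were lower. COL1A2 was lower later in 6 of 6 LPLE heifers, DCN was higher in 6 of 6 HPHE heifers and XYLT1 in 6 of 6 LPLE heifers. These COL1A2 changes ranged from −1.54 to −0.0011 on the log2 scale.

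The changes by diet start from the 12-month libraries on which the genes were chosen. A later rise of DCN in LPHE or of XYLT1 in HPLE and a later fall of the collagens in LPLE are therefore favoured by that choice and are no independent evidence. By diet, DCN was higher later in the high-energy groups, with 0.72 (SE 0.225, FDR 0.01001) in LPHE and 0.85 (SE 0.225, FDR 0.00168) in HPHE, where 29.8% and 32.4% of genes were called and 13.8% and 16.5% were higher. It rose in 5 of 6 LPHE and 6 of 6 HPHE heifers. The exact sign-flip permutation p for DCN was 0.0625 in LPHE and 0.03125 in HPHE. After adjustment over 20 tests of a gene in a diet these were 0.268 and 0.208. In LPLE the log2FC of DCN was −0.06 and in HPLE it was 0.13, with 3 of 6 heifers higher in each. The LPHE call was lost without heifer 24 (log2FC 0.53, FDR 0.111), whose DCN went from 2469 to 6895 CPM.

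XYLT1 was called in HPLE alone (2.62% of genes called), with 1.09 (SE 0.328, FDR 0.0547) and 5 of 6 heifers higher. The call was lost with the quasi-likelihood test (FDR 0.114, 2.1% of genes called) and without heifer 1, 9, 17 or 21 (FDR up to 0.374). With each heifer as a block the call was kept (0.99, FDR 0.0168). The exact sign-flip permutation p in HPLE was 0.09375, and 0.268 after adjustment. In LPLE, XYLT1 was higher in 6 of 6 heifers, by 0.164 to 0.795 on the log2 scale, with a fitted log2FC of 0.54 that did not pass. In HPHE 2 of 6 heifers were higher and in LPHE 3 of 6.

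No collagen was called between the times in any diet (0.598% of genes were called in LPLE). The likelihood ratio test gave an unadjusted p under 0.05 for all 3 in LPLE and for COL1A1 and COL1A2 in HPHE, and the quasi-likelihood test called none in either diet. In LPLE the values were negative, with −0.95 (SE 0.383, FDR 0.387) for COL1A2, −0.89 (SE 0.413, FDR 0.524) for COL1A1 and −0.61 (SE 0.298, FDR 0.555) for COL3A1. COL1A2 was lower later in 6 of 6 LPLE heifers, with a mean change of −0.84, but heifers 4 (−0.0011) and 8 (−0.0919) hardly changed. The exact sign-flip permutation p was 0.03125, the smallest that 6 heifers allow, and 0.208 after adjustment over 20 such tests. In the HPHE heifers COL1A1 had a log2FC of 0.87 (SE 0.412, FDR 0.107), from 3 heifers that rose and 3 that did not.

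Single heifers moved far in both directions. HPHE heifers 2, 15 and 19 reached 24235 to 27630 CPM of COL1A1 in month 7 of gestation, while HPHE heifers 6 and 23 stayed between 4512 and 5776 CPM across both times. LPHE heifer 12 fell from 19178 to 4729 CPM, the highest LPHE value at 12 months and the lowest later, and LPHE heifer 24 went the other way, from 4447 to 14678 CPM. Without heifer 12, the COL3A1 change in LPHE was 0.68 in place of 0.38 and was called (FDR 0.0957).

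No relation between a heifer's levels at the 2 times was shown. After diet and genetic group were removed, Pearson's r between the 2 times over 24 heifers was 0.303 for COL1A1, 0.356 for COL1A2, 0.171 for COL3A1, 0.175 for DCN and 0.383 for XYLT1. Spearman's rho ranged from 0.10 to 0.382. None passed the permutation test after adjustment over the 5 genes, with adjusted p from 0.219 for r and from 0.185 for rho. Without the 2 heifers farthest from the median, r ranged from 0.0900 to 0.318.

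The change of the energy effect between the times was tested as a difference, month 7 of gestation minus 12 months. It was 1.04 (SE 0.380, FDR 0.0442) for COL1A2 and 0.75 (SE 0.223, FDR 0.0106) for DCN, and both were called, where 14.9% of genes were called and 5.39% were higher. For COL1A1 it was 0.996 (SE 0.410, FDR 0.0803), for COL3A1 0.70 (SE 0.298, FDR 0.0926) and for XYLT1 −0.74 (SE 0.324, FDR 0.104), past no threshold of 0.05. These values contain the 12-month libraries on which the genes were chosen, so they are not independent of that choice. By the paper's ages at pregnancy, high- and low-energy heifers also differed in age at the later time.

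With each heifer as a block, which is the fit that uses the repeated sampling, 4 of the 5 were called, where 22% of all genes were. COL1A1 (0.94, FDR 0.0351) and XYLT1 (−0.75, FDR 0.0303) were then added to COL1A2 (FDR 0.0136) and DCN (FDR 0.00736), and COL3A1 was at an FDR of 0.0883. The DCN call was kept in all 24 fits that left out 1 heifer. The COL1A2 call was kept in 9 of 24, with values between 0.89 and 1.23 and an FDR of at most 0.112, and was lost with the quasi-likelihood test (FDR 0.0670, 17.8% of genes called).

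The 30 other matrix genes were matched through the study's LPHE-LPLE list, so a shift away from their 12-month difference is favoured by that choice and is no independent evidence. Of them, 12 were called with a higher energy effect in month 7 of gestation (10 called by the quasi-likelihood test), where 5.39% of all genes were called higher by the likelihood ratio test, and 29 of 30 were positive with a median of 0.65 against 0.06 over all genes. GPC3 (1.08, FDR 0.00157), the basement membrane chain LAMB1 (0.91, FDR 0.00318) and the fibril-associated collagen COL14A1 (0.95, FDR 0.00402) had the smallest p values. ELN, the gene of elastin, had 1.19 (FDR 0.0337), and PODN, a small leucine-rich proteoglycan related to decorin, 0.83 (FDR 0.0187). The precursor marker PI16 moved with them (1.44, SE 0.353, FDR 0.00126), while the fat cell genes LEP (−1.57, SE 0.366, FDR 0.000546) and CIDEC (−0.70, SE 0.210, FDR 0.0116) moved the other way. In month 7 of gestation PI16 ranged from 278 to 927 CPM in LPHE, 201 to 837 CPM in LPLE, 210 to 769 CPM in HPHE and 145 to 269 CPM in HPLE, so LPLE overlapped both high-energy groups. At 12 months it had ranged from 162 to 297 CPM in HPHE and from 133 to 445 CPM in HPLE. The part of these cells in the change was not tested.

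Between the times over all diets, where 37.4% of all genes were called, 15 of the 30 were called higher and 2 lower, LOXL1 and TGFB2. PODN (1.15, FDR 2.31e-15), COL6A3 (0.92, FDR 3.05e-09) and FBLN1 (0.79, FDR 1.04e-08) led. In LPHE 19 were higher (29.8% of all genes were called) and in HPHE 17 were higher and 1 lower (32.4%). In LPLE 1, TGFB2, was lower (0.598%), and in HPLE 3 were higher (2.62%). As over all genes, more were called in the high-energy diets, and the same limit of choice applies.

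The contrast of high- and low-protein diets (HP-LP) showed no call. It does not cover the protein intake that differed between HE and LE. In HP-LP overall at 12 months none of the 5 was called (0.0225% of genes were), COL1A1 had an unadjusted p of 0.0393 with a log2FC of −0.45 (SE 0.218), and the quasi-likelihood test called none. COL1A2 had −0.39 (SE 0.202), COL3A1 −0.20 (SE 0.172), DCN −0.11 (SE 0.158) and XYLT1 −0.14 (SE 0.192). In month 7 of gestation the values lay between 0.05 and 0.34, none had an unadjusted p under 0.05, and neither test called any (0.0746% of genes were called).

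The genetic groups were compared in the same fits. At 12 months COL1A1 was 0.59 (SE 0.218) and COL1A2 0.49 (SE 0.202) higher in HMY than in LCM on the log2 scale, with unadjusted p of 0.00705 and 0.0166 and FDR of 0.322 and 0.415, and COL3A1 had 0.34 (SE 0.173), DCN −0.07 and XYLT1 −0.29. None of the 5 was called by the likelihood ratio test (0.0075% of genes were) or the quasi-likelihood test. In month 7 of gestation the collagens lay between −0.11 and 0.02, and DCN was at −0.37 (SE 0.157) with an unadjusted p of 0.0175 and an FDR of 0.619, and again neither test called any (0.0522% of genes were called).

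Across heifers the 3 collagens kept step. With diet and genetic group removed, Pearson's r over 24 heifers between COL1A1 and COL1A2 was 0.948 at 12 months (rho 0.958) and 0.981 in month 7 of gestation (rho 0.971). It was 0.877 and 0.928 between COL1A1 and COL3A1 (rho 0.906 and 0.907) and 0.888 and 0.946 between COL1A2 and COL3A1 (rho 0.877 and 0.926). Each of these had a permutation p of 1e-05, the smallest that 100000 draws can give, and 2.5e-05 after adjustment of the r over 20 pairs. Without the 2 heifers farthest from the median of the first named gene of a pair, r stayed at 0.844 or above.

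DCN followed the collagens less closely at 12 months than in month 7 of gestation, as point values. Its r with COL1A1, COL1A2 and COL3A1 was 0.431, 0.599 and 0.463 at 12 months (rho 0.423, 0.567 and 0.422). The adjusted permutation p was 0.0544, 0.00374 and 0.0421 for r and 0.0679, 0.00928 and 0.0679 for rho. In month 7 of gestation r was 0.790, 0.827 and 0.758 (rho 0.780, 0.772 and 0.687). The adjusted permutation p was then at most 4.44e-05 for r and at most 0.0006 for rho. In these pairs the 2 heifers left out were those farthest from the median of the collagen, not of DCN, and could differ between pairs. Without them the r of DCN at 12 months was 0.342 with COL1A2 and 0.351 with COL3A1, so those 2 relations rested in part on them. With COL1A1 it was 0.565, higher than with all heifers, and the later r stayed at 0.659 or above. The difference between the 2 times was not tested.

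XYLT1 had a negative r with each collagen, from −0.247 to −0.286 at 12 months and from −0.219 to −0.438 in month 7 of gestation, with rho between −0.349 and −0.170. None passed after adjustment, with the lowest adjusted p, 0.0537, for COL1A1 in month 7 of gestation. Without the 2 heifers farthest from the median of the collagen, r was between −0.185 and 0.00430 at 12 months and between −0.401 and −0.347 in month 7 of gestation. A relation between XYLT1 and the collagens across heifers was thus not shown.

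**Figure D5:**
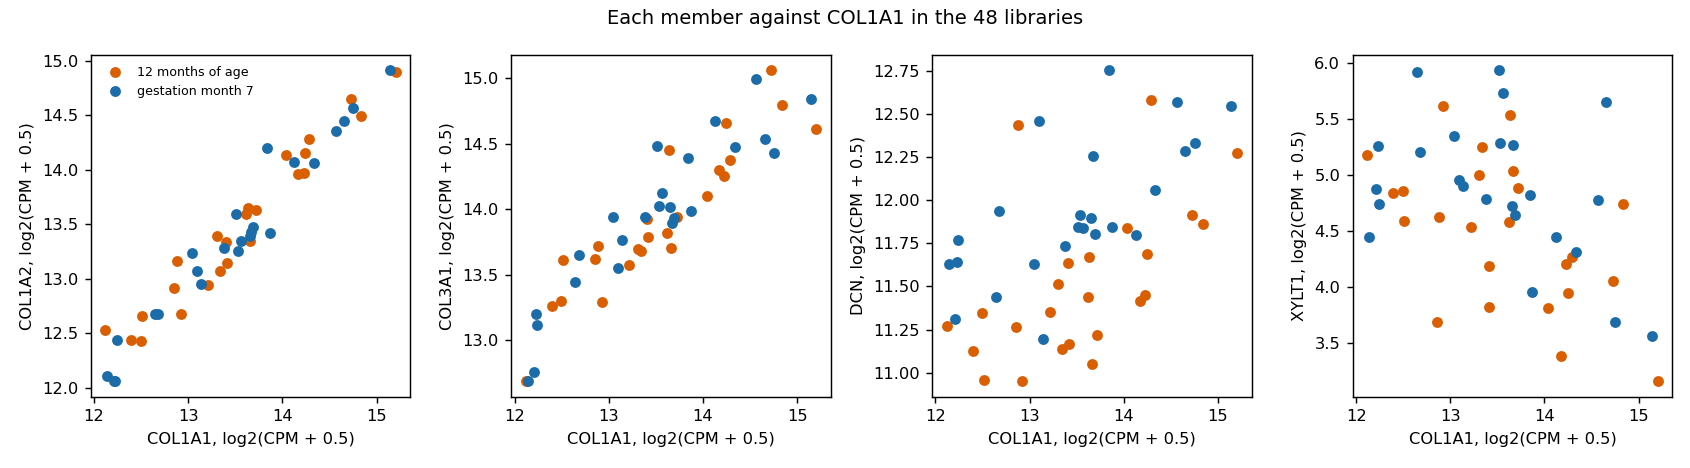
Each of the other 4 genes against COL1A1 in the 48 libraries, as log2(CPM + 0.5), with 1 point per library coloured by time. COL1A2 and COL3A1 form narrow bands along COL1A1, with r of 0.877 or more at each time once diet and genetic group are removed, while DCN is wider and XYLT1 scatters.

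The ratio of one gene to another in the same library was also compared, a set of contrasts chosen after the data were seen. For LPHE against LPLE at 12 months the COL1A1/COL1A2 ratio differed by −0.09 on the log2 scale, with an exact permutation p of 0.565 and 0.753 after adjustment over 32 such tests. The smallest p were those of DCN/COL3A1, higher later by 0.498 in LPLE and by 0.496 in HPHE, each with an exact sign-flip permutation p of 0.03125, the smallest that 6 heifers allow, and an adjusted p of 0.5. Since no change over time within a diet could go below that, an adjusted p over 32 tests says little of those ratios.

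Over the 48 libraries, the genes most like each of the 5 by Pearson's r of log2 CPM were listed as a description, since diet and time add to these values. For COL1A1 they were CPZ (r 0.934), FKBP10 (0.923), RCN3 (0.919) and SLC7A10 (0.893), beside 1 gene without a symbol. COL1A2 had FKBP10 (0.938), CPZ (0.917), RCN3 (0.905) and SLC7A10 (0.887), and COL3A1 had RCN3 (0.905), COL5A1 (0.894), FKBP10 (0.889), ADAMTS2 (0.875) and CPZ (0.830). COL5A1 encodes a chain of type V collagen, and ADAMTS2 a protease that cuts the end of procollagen.

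DCN had other neighbours, DNM1 (0.904) and PRDM8 (0.859) beside 3 genes without a symbol. XYLT1 had PPM1L (0.791), PCSK5 (0.774) and FGF1 (0.765) beside 2 without a symbol. No gene appeared in the lists of both a collagen and DCN, or of XYLT1 and any other of the 5.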

How the data were processed

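Subcutaneous adipose mRNA of 24 heifers at 2 times was sequenced. The deposited values are raw read counts per Ensembl gene, made by the authors with Cutadapt 1.3, TopHat2 2.0.12 on the UMD3.1 assembly, and HTSeq, one table per sample and not normalized. The 5 summary rows of HTSeq were removed. Strand use in counting is not given in the sources used here, and overlapping genes may share reads. A gene entered the fits if 3 or more samples had 2 CPM or more (13339 at 12 months, 13403 in month 7 of gestation and 13718 over both). Counts were TMM-normalized, and diet and genetic group were fitted in edgeR 4.0.16 (R 4.3.3) with tagwise dispersions and the likelihood ratio test. The study's methods name tagwise dispersions and the glmFit function. They name neither TMM nor the likelihood ratio test, which were chosen here. The adjusted p is the Benjamini-Hochberg FDR over all genes tested, with a threshold of 0.1 for 2 diets and for times within a diet, and 0.05 for contrasts over all heifers. The SE was taken as the size of a log2FC over the root of its likelihood ratio. The main fit over both times had groups of diet and time and no heifer block. Single-gene permutation tests used log2(CPM + 0.5).

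The 5 genes and the lists were chosen with earlier results of these data known. Symbols came from the study's tables of DEG, which cover 1006 symbols, and the annotation tables at hand were of another assembly, so no coordinates are given and no sequence was used. Outside the 5 genes, at most the 3 called genes with the smallest p per list and contrast are named, as are the 5 genes with the highest r for each. LEP, CIDEC, PI16, ACTA1, MYH2 and MYLPF are markers from fixed lists, and LOXL1 was named after its values were seen.

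Alternatives were the quasi-likelihood test, DESeq2 1.42.0, size factors, no scaling beyond library size, other filters, all 48 samples in the fit, each heifer left out and heifer as a block. By the labels, the same numbered heifer is the same animal at both times. Correlations of deviations from group means between a heifer's 2 libraries ranged from −0.0897 to 0.542 (median 0.219, 16 of 24 over 0.1), against a median of −0.0104 for other pairs. The highest correlation of a 12-month library was with the same heifer's later library in 9 of 24 heifers. The value of −0.0897 was that of heifer 12. Scripts were tested on simulated data.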

Additional observations from a re-analysis of the deposited data

Results flagged for a closer look

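COL3A1 in LPHE heifer 12 in month 7 of gestation, at 6930 CPM, stood apart from the other 5 LPHE heifers of that time, whose group median was 16195 CPM. Its gap to the nearest heifer was 0.660 of the range of the log2 values, against a critical value of 0.625. It was the only one of 40 groups of 6 heifers to stand apart in this way, where chance gives about 1 in 20. The same heifer had the highest COL1A1 of its diet at 12 months.

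The energy effect differed between the times past the threshold, as an interaction in the fit of all 48 libraries, by 1.04 (SE 0.380) for COL1A2 and by 0.75 (SE 0.223) for DCN on the log2 scale. The COL1A2 call was lost with the quasi-likelihood test (FDR 0.0670), without a filter on low counts (FDR 0.0600) and without any of 15 heifers. Both genes were chosen on the 12-month libraries that enter this difference. The cause was not tested.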

How the results depend on the processing

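Counts below are of the 5 genes. In HPHE-HPLE at 12 months the count went from 1 to 0 at an FDR threshold of 0.05, with the quasi-likelihood test, with library size alone, with all 48 samples in the fit, with estimateDisp (chosen after seeing the data) and without libraries over 10 CPM of ACTA1. The XYLT1 FDR was 0.148, 0.209, 0.101 and 0.273 in the last 4. In HPLE over time it went from 1 to 0 at 0.05 and with the quasi-likelihood test. In HPHE over time it went from 1 to 4 with library size alone. For the energy effect between the times it went from 2 to 4 at 0.1, with library size alone and with the heifer block, and to 1 with the quasi-likelihood test and without a filter on low counts. With a heifer left out, counts ranged from 2 to 4 in LPHE-LPLE, 0 to 1 in HPHE-HPLE, 0 to 2, 0 to 1 and 1 to 3 over time in LPHE, HPLE and HPHE, 1 to 2 over time overall and 1 to 5 for the energy effect between the times, stayed at 5 in HE-LE overall at 12 months and at 0 in the others.

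With all 48 samples in the fit COL1A2 in LPHE-LPLE (FDR 0.103) and COL3A1 in HE-LE overall (FDR 0.0609) missed the threshold at 12 months. HMY-LCM was not run in that fit, which would pool the times. The COL1A2 call was lost without heifer 14 (FDR 0.103). DCN in LPHE-LPLE was lost without heifer 3, 5, 8, 10, 14, 16, 18 or 24 and without a filter (FDR 0.132), and XYLT1 over time overall without heifer 3 (FDR 0.0586). COL1A2 in the energy effect between the times was lost without any of 15 heifers.

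Uncalled values near 0 changed sign. With all 48 samples in the fit XYLT1 in HPHE-HPLE became 0.0178 and the COL1A2 interaction 0.0558, both in month 7 of gestation. With the heifer as replicate block, XYLT1 in HPHE over time became −0.129, COL1A1 and COL3A1 in HPLE −0.303 and −0.0259, and COL1A1 and COL1A2 over time overall −0.0592 and −0.0954, and the block changed no other call than those given. Without libraries over 10 CPM of ACTA1, in month 7 of gestation HPHE-HPLE was −0.0482, −0.0174, −0.0180 and 0.0823 for COL1A1, COL1A2, COL3A1 and XYLT1, the interaction 0.0607, 0.215, 0.09998 and 0.0119 for COL1A1, COL1A2, COL3A1 and DCN, HE-LE overall −0.0178 for COL1A1 and HP-LP overall −0.120 for XYLT1. The cause was not tested.

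With 1 heifer left out in turn, other uncalled values also changed sign, over these ranges. In month 7 of gestation LPHE-LPLE ran from −0.166 to 0.200 for COL1A1, −0.0148 to 0.259 for COL3A1 and −0.0556 to 0.283 for XYLT1, and HPHE-HPLE from −0.117 to 0.364 for COL3A1 and −0.227 to 0.207 for XYLT1. The interaction ran from −0.505 to 0.144 for COL1A2, −0.271 to 0.214 for COL3A1, −0.237 to 0.00465 for DCN and −0.101 to 0.311 for XYLT1. HE-LE overall ran from −0.00947 to 0.229 for COL3A1 and −0.0711 to 0.156 for XYLT1, and HP-LP overall from −0.0356 to 0.443 for COL1A1, −0.0211 to 0.120 for DCN and −0.0566 to 0.149 for XYLT1. HMY-LCM ran from −0.235 to 0.229 for COL1A1, −0.241 to 0.182 for COL1A2 and −0.0805 to 0.180 for COL3A1, and at 12 months from −0.127 to 0.0562 for DCN. Over time, LPHE ran from −0.0324 to 0.614 for COL1A2 and −0.0714 to 0.258 for XYLT1, LPLE from −0.179 to 0.0570 for DCN, HPHE from −0.190 to 0.139 for XYLT1, and HPLE from −0.463 to 0.175 for COL1A1, −0.441 to 0.0506 for COL1A2 and −0.0659 to 0.169 for COL3A1. All diets together ran from −0.0466 to 0.160 for COL1A1 and −0.0739 to 0.0973 for COL1A2.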

Other observations

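In LPHE heifers XYLT1 rose between the times in the 3 HMY heifers, by 0.67 to 1.10 on the log2 scale, and fell in the 3 LCM heifers, by values from −0.69 to −0.35. In HPHE heifers 2 of 3 HMY heifers rose and 3 of 3 LCM heifers fell. The low-energy diets did not show this split, with 3 of 3 HMY heifers rising in each, and 3 of 3 LCM heifers in LPLE and 2 of 3 in HPLE. This split was seen in the data and was not tested, and with 3 heifers against 3 an exact permutation test cannot go below a p of 0.1.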
